A study of Mus musculus with 6 samples.

Results

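The matricellular genes of the injured heart described here are *Cilp*, *Comp*, *Postn*, *Thbs1*, *Thbs2*, *Thbs3*, *Thbs4*, *Tnc*, *Sparc* and *Spp1*. They were chosen by gene symbol, and all non-control probes that carry one of these symbols were taken, which gave 18 probes for 10 genes out of 27307 genes and 56605 probes on the array. A probe was called detected on an array where Agilent's flag put its signal well above background. A probe was tested where all 3 arrays of a group detected it, which held for 9 genes and 15 probes and not for *Tnc*. Across the array, 22998 probes passed the same filter.

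RNA came from the myocardium of male C57BL/6J *Clk4*-cKO mice, with 3 mice given AAV NEXN-WT and 3 given AAV NEXN-S437E, and each mouse had its own Agilent array in 1 colour. NEXN is nexilin, an F-actin-binding protein of the Z-disc, and S437E replaces a serine with glutamate to mimic the phosphorylated protein, so the comparison asks what the phosphomimetic form changes in hearts with *Clk4* deleted in cardiomyocytes. Both groups carried floxed *Clk4* and the tamoxifen-inducible α-MHC-MerCreMer, which deletes *Clk4* in cardiomyocytes and not in fibroblasts or other cells, and mice with intact *Clk4* were not analysed here. Per the methods, the virus was injected at 5 weeks of age, tamoxifen was given at 6 to 8 weeks, and hearts were taken 3 weeks after the first dose. The AAV9 vector used the CMV promoter, which is not restricted to cardiomyocytes, and also encoded GFP. The p-values measure the spread between these 6 samples.

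Matricellular proteins are secreted into the extracellular matrix, where they act on cells and on collagen assembly more than they bear load. Most are sparse in the healthy adult heart and are made by activated fibroblasts, and some by macrophages or stressed cardiomyocytes, after injury or overload. They bind integrins and other receptors, and several bind TGF-β or steer collagen fibril formation. In RNA from whole myocardium, fewer cells of a type and less RNA per cell cannot be told apart.

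Of the 10 matricellular genes, 6 were called lower in NEXN-S437E than in NEXN-WT hearts, by the widest margin *Comp*, *Cilp*, *Postn* and *Thbs4*, and also *Thbs3* and *Thbs1*, while *Thbs2*, *Sparc* and *Spp1* were not called and *Tnc* was not tested. Each gene was read on its tested probe of highest mean, called the lead probe. Over the 8 genes whose lead probe was detected on all 6 arrays the median log2 difference was -2.20, or -1.60 without NEXN-WT replicate 1, against 0.09 over all tested probes. Of the 9 tested genes, 6 were at least 2-fold lower with an unadjusted limma p under 0.05, together called the 2-fold criteria below, where 1.78% of all tested probes were, and 0 were higher by the same criteria, where 0.735% of all tested probes were. The study set the same limits on the p of another test, called the methods' t-test here, and by it 5 of the 9 met them, without *Thbs1*. *Spp1* passed the filter only through NEXN-WT, and among the 8 genes detected on all 6 arrays 6 met the 2-fold criteria, against 1.14% of probes so detected. *Cilp* alone also had an adjusted p under 0.05 in that direction, as 0.13% of tested probes had. In 7 of the 9 genes every NEXN-S437E array lay below every NEXN-WT array, against 9.17% of tested probes, and an exact permutation test of 3 against 3 arrays cannot give a two-sided p under 0.1. All levels below are log2 signal minus the array's 75th percentile, so a difference of 1 is 2-fold, and each probe has its own scale.

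**Figure D1:**
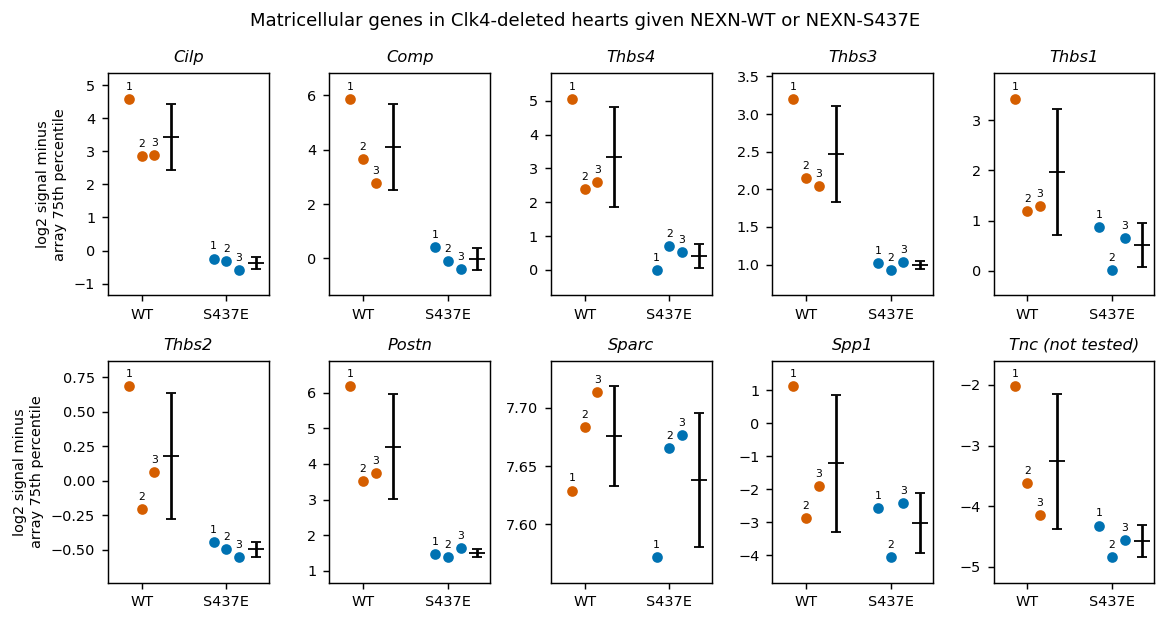
Log2 signal minus the array's 75th percentile (vertical axis, a separate scale in each panel) for the lead probe of each matricellular gene and the brighter *Tnc* probe, in 3 NEXN-WT arrays (orange) and 3 NEXN-S437E arrays (blue), numbered by replicate, with bars for mean and SD. NEXN-WT replicate 1 is the highest array in every panel but that of *Sparc*, and the groups overlap for *Sparc* and *Spp1*.

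One NEXN-WT array stood apart and bears on each value below. NEXN-WT replicate 1 was the highest of the 6 arrays for 8 of the 9 lead probes. Over the lead probes its mean absolute log2 distance from the other 2 NEXN-WT arrays was 1.86 and 1.94, while those 2 lay 0.31 apart and the NEXN-S437E arrays 0.27 to 0.44 apart. Over all tested probes the same distances were 0.38 and 0.44, 0.25, and 0.19 to 0.29. NEXN-WT replicate 1 was also the brightest array, with a 75th percentile signal of 273 against 110 to 175 on the others. It had the most spots well above background (47.8%), and NEXN-S437E replicate 1, the dimmest array, the fewest (41.9%). Without NEXN-WT replicate 1, *Cilp*, *Comp*, *Postn*, *Thbs3* and *Thbs4* were still past the 2-fold criteria, which makes 5 of 9 where 1.13% of tested probes were, and *Thbs1* was not. These 5 genes then also had adjusted p-values under 0.05, from 0.00229 for *Cilp* to 0.0255 for *Thbs3*, where 0.457% of tested probes were lower at that level. Over the 19 alternatives tried, the adjusted p of these 5 genes ran from 0.000271 to 0.399.

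CILP, the cartilage intermediate layer protein, is a secreted glycoprotein known in cartilage and in cardiac fibroblasts, where it binds TGF-β1. The *Cilp* probe (A_51_P241319, chr9:65128007-65128066 on mm9) gave 4.58, 2.84 and 2.87 with NEXN-WT and -0.24, -0.30 and -0.58 with NEXN-S437E. Every NEXN-S437E array was below every NEXN-WT array, with a gap of 3.08 between the closest 2. *Cilp* fell by 3.81 on the log2 scale (SE 0.43, n = 3 and 3, limma adjusted p = 0.0221), which is 14.0-fold lower with a 95% interval of 6.99 to 28.0. It was 9.40-fold lower when NEXN-WT replicate 1 was left out. It ranked 9 from the lowest difference among the tested probes.

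COMP, also called thrombospondin-5, is a pentameric glycoprotein of cartilage and tendon that binds collagens and is made by fibroblasts in scars. The *Comp* probe lies at chr8:72905692-72905825 on mm9, a stretch of 134 bases for a probe of 60. It gave 5.87, 3.66 and 2.77 with NEXN-WT and 0.43, -0.09 and -0.38 with NEXN-S437E. The groups did not overlap, and the NEXN-WT arrays were spread widely (SD 1.59, against 0.41 with NEXN-S437E). The log2 difference was -4.11 (SE 0.69, limma adjusted p = 0.0821), a 17.3-fold lower level with a 95% interval of 5.77 to 51.7. It was 9.36-fold lower when NEXN-WT replicate 1 was left out.

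THBS4 is a pentameric thrombospondin that rises in stressed hearts and acts in the secretory pathway as well as in the matrix. Its probe (chr13:93521565-93521624 on mm9) gave 5.05, 2.40 and 2.59 with NEXN-WT and 0.00, 0.70 and 0.54 with NEXN-S437E. The groups did not overlap, and NEXN-WT replicates 2 and 3 lay close together. The log2 difference was -2.94 (SE 0.64, limma adjusted p = 0.123), 7.65-fold lower with a 95% interval of 2.76 to 21.2, and 4.24-fold lower without NEXN-WT replicate 1.

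THBS3, the third pentameric member, is less studied in the heart. Its lead probe (chr3:89030522-89030581 on mm9) gave 3.20, 2.16 and 2.05 with NEXN-WT and 1.03, 0.93 and 1.03 with NEXN-S437E. The NEXN-S437E arrays were nearly level (SD 0.06) and all lay below the NEXN-WT arrays. The log2 difference was -1.47 (SE 0.29, limma adjusted p = 0.107), and the second probe gave -1.55 (SE 0.36), so both probes put *Thbs3* a little under 3-fold lower, at 2.78-fold and 2.92-fold.

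THBS1 and THBS2 form trimers and restrain angiogenesis, and THBS1 is also known to activate latent TGF-β. The *Thbs1* lead probe (chr2:117952585-117952644 on mm9) gave 3.43, 1.20 and 1.30 with NEXN-WT and 0.86, 0.02 and 0.65 with NEXN-S437E. The groups were separated by 0.33 only, and the second *Thbs1* probe overlapped between groups. The log2 difference of the lead probe was -1.47 (SE 0.56, limma adjusted p = 0.252), 2.77-fold lower. *Thbs1* met the 2-fold criteria by limma and missed them by the methods' t-test. The difference was -0.74 without NEXN-WT replicate 1, short of the 2-fold criterion.

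The *Thbs2* probe (chr17:14804526-14805789 on mm9) gave 0.69, -0.21 and 0.06 with NEXN-WT and -0.45, -0.49 and -0.55 with NEXN-S437E. The groups did not overlap, but the separation of 0.24 was narrow. The log2 difference was -0.68 (SE 0.23, limma adjusted p = 0.218), 1.60-fold lower with a 95% interval of 1.11 to 2.31, so *Thbs2* missed the 2-fold criterion. The thrombospondins thus ran from 17.3-fold lower for *Comp* to 1.60-fold for *Thbs2*, and the differences between members of the family were not tested, since each probe has its own response. The probes of different members share no run of identical bases longer than 10, the longest being between *Thbs1* and *Thbs4*.

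**Figure D2:**
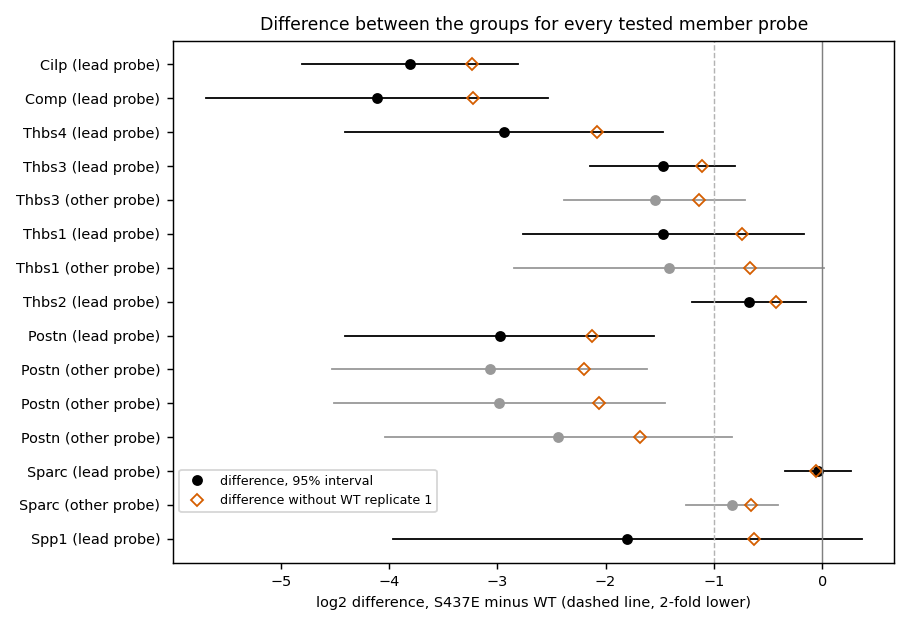
Log2 difference between NEXN-S437E and NEXN-WT (horizontal axis) for the 15 tested matricellular probes, lead probes in black and others in grey, with 95% intervals, and the difference without NEXN-WT replicate 1 as orange diamonds. Without that array the differences of *Cilp*, *Comp*, *Postn*, *Thbs3* and *Thbs4* stay left of the dashed 2-fold line, and those of *Thbs1*, *Thbs2*, *Sparc* and *Spp1* lie to its right.

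POSTN, periostin, is a fasciclin-domain protein that marks activated cardiac fibroblasts and promotes collagen fibril assembly. The lead *Postn* probe (chr3:54194483-54194542 on mm9) gave 6.18, 3.54 and 3.74 with NEXN-WT and 1.48, 1.40 and 1.63 with NEXN-S437E. The NEXN-S437E arrays were tightly grouped (SD 0.12) and lay 1.90 below the nearest NEXN-WT array. The log2 difference was -2.98 (SE 0.62, limma adjusted p = 0.112), 7.89-fold lower with a 95% interval of 2.93 to 21.2, and 4.38-fold lower without NEXN-WT replicate 1.

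*Postn* had 4 probes, of which 3 were detected on all 6 arrays. The 2 of these other than the lead probe gave log2 differences of -3.07 and -2.98, or -2.20 and -2.06 without NEXN-WT replicate 1. The dimmest, A_55_P2716356 (chr3:54188575-54188634 on mm9), was detected on the 3 NEXN-WT arrays, at -0.40, -2.16 and -3.13, and not well above background with NEXN-S437E, where it was lower by at least 2.60-fold, or 1.55-fold without NEXN-WT replicate 1. This bound sets the NEXN-WT mean against, on each NEXN-S437E array, the higher of the probe's own signal and the lowest signal of any detected probe.

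SPARC, osteonectin, binds collagen and guides its processing and is made by fibroblasts and endothelial cells. Its probes disagreed. The brightest (chr11:55208939-55208998 on mm9) gave 7.63, 7.68 and 7.71 with NEXN-WT and 7.57, 7.67 and 7.68 with NEXN-S437E. The groups overlapped, and the log2 difference was -0.04 (SE 0.13, limma adjusted p = 0.895), with a 95% interval from 0.831-fold to 1.27-fold lower. This was the only lead probe for which NEXN-WT replicate 1 was not the highest array.

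The second *Sparc* probe (chr11:55209449-55212106 on mm9) gave 7.02, 6.42 and 6.54 with NEXN-WT and 5.80, 5.76 and 5.91 with NEXN-S437E. These groups did not overlap, and the log2 difference was -0.84 (SE 0.18, limma adjusted p = 0.129), 1.79-fold lower with a 95% interval of 1.33 to 2.40. The bright probe had 144 to 303 probes brighter than itself on an array, and 0 spots of any array were saturated. The third *Sparc* probe was detected on 0 arrays. Which of the 2 measured probes follows *Sparc* RNA was not tested.

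SPP1, osteopontin, is a phosphorylated, integrin-binding glycoprotein made by activated macrophages and by other cells after injury. Its probe (chr5:104869788-104869847 on mm9) gave 1.12, -2.85 and -1.91 with NEXN-WT and -2.57, -4.05 and -2.41 with NEXN-S437E. NEXN-WT replicate 1 stood far above the rest, NEXN-WT replicate 2 lay within the NEXN-S437E values, NEXN-WT replicate 3 lay just above them, and the probe was not detected on NEXN-S437E replicate 2. The log2 difference was -1.80 (SE 0.94, limma adjusted p = 0.351), with a 95% interval from 0.778-fold to 15.6-fold lower. The difference was -0.63 without NEXN-WT replicate 1.

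TNC, tenascin-C, is a hexameric glycoprotein found at the edge of wounds and infarcts. Both *Tnc* probes were detected on NEXN-WT replicate 1 only, so *Tnc* was not tested. The brighter probe (chr4:63620819-63620864 on mm9) gave -2.02 in that heart, -3.62 and -4.14 in the others given NEXN-WT, and -4.32, -4.84 and -4.55 with NEXN-S437E. *Tnc* was thus measured in 1 of 6 hearts, and no fold difference is given.

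The normalized log2 values deposited by the authors put the same genes in the same direction. *Cilp* was 12.13, 10.20 and 10.20 with NEXN-WT and 7.11, 7.04 and 6.77 with NEXN-S437E, and *Postn* was 13.82, 10.91 and 11.07 against 8.81, 8.72 and 8.96. On that scale the differences of the lead probes were -4.21 for *Comp*, -3.87 for *Cilp*, -3.10 for *Postn*, -3.03 for *Thbs4*, -1.88 for *Spp1*, -1.54 for *Thbs3*, -1.53 for *Thbs1*, -0.68 for *Thbs2* and -0.35 for *Sparc*. The *Sparc* groups, which overlapped above, did not overlap there (15.40, 15.11 and 15.03 against 14.73, 14.86 and 14.92). With these values 6 of 9 genes met the 2-fold criteria, against 2.02% of all tested probes, and *Cilp* had a limma adjusted p of 0.0554, against a range of 0.000271 to 0.338 over its 19 alternatives.

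The sequences of *Cilp*, *Thbs4* and *Postn* are shown because these are the genes of widest difference with a promoter entry, and *Comp* is shown by its probe. The first 30 bases of each lead probe, 5′ to 3′ as deposited and with no capitals, are these:
Cilp probe: tttctgtccatctcatgtgacagctgtcgt
Comp probe: ctgcgctaccgttgcaatgatacaatccct
Thbs4 probe: tatcatggcttttcttttaccagcccaaat
Postn probe: gattaaagtagaatccaccaaagaacatca
The 250 bases before the annotated start, from RefSeq on GRCm38.p6, were searched on both strands for TATAAA (found in some core promoters), CAGAC (known as a SMAD-binding motif), GGAATG (known for TEAD factors), TGACTCA (known for AP-1) and GGGCGG (known for SP1), and matches are in capitals. The table held 8 of the 10 genes, without *Comp* and *Thbs1*. Coordinates here are on another build than those of the probes. The *Cilp* promoter is chr9:65264930-65265179 on the plus strand, the *Thbs4* promoter chr13:92794819-92795068 on the minus strand, and 1 of the 2 *Postn* windows in the table chr3:54360857-54361106 on the plus strand:
Cilp promoter: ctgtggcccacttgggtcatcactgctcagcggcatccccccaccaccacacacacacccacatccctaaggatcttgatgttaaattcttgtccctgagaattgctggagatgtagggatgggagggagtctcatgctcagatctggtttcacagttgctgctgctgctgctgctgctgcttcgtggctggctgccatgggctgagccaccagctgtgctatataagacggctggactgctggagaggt
Thbs4 promoter: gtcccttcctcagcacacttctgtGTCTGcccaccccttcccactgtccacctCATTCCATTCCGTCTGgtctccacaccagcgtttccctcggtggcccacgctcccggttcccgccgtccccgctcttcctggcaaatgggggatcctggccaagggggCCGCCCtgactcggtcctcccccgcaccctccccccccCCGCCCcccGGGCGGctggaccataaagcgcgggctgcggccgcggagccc
Postn promoter: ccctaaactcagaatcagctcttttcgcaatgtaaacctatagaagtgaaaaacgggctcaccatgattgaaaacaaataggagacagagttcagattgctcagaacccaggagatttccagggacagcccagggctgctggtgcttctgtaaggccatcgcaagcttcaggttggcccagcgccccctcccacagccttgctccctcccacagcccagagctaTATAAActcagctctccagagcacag
The *Cilp* window held none of the 5 motifs, the *Postn* window shown held 1 TATAAA, starting 26 bases before the start, and the *Thbs4* window held 2 CAGAC, 2 GGAATG and 3 GGGCGG. The other *Postn* window, chr3:54359017-54359266, held none of the 5 but 1 CAGAC, 191 bases before its start. Of 32851 promoter windows in the table, 12.4% held TATAAA, 42.2% CAGAC, 12.6% GGAATG, 4.46% TGACTCA and 32.7% GGGCGG. A match is a description of letters and not of a binding site.

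The genes that work with the members were examined as lists. A gene that passed the filter only through NEXN-WT, where it is high, was favoured by the filter to differ. The counts and medians below are therefore over the genes detected on all 6 arrays, and the others are named with their detection. Of 12 such matrix partners, 7 met the 2-fold criteria as lower, 0 were higher, and the median log2 difference was -1.18, and without NEXN-WT replicate 1 the count was 5. The 4 with the smallest p were *Col3a1* (-1.34, SE 0.22), *Col1a1* (-1.82, SE 0.30), *Col5a1* (-1.56, SE 0.28) and *Col1a2* (-1.49, SE 0.31), all fibrillar collagen chains that POSTN, SPARC, COMP or THBS2 are known to bind or organise, with limma adjusted p from 0.0815 to 0.114. *Matn3* and *Col9a1*, cartilage partners of COMP, were detected on 0 arrays. *Col12a1* and *Col5a2* were detected on 3 NEXN-WT and 0 NEXN-S437E arrays, at levels lower by at least 3.05-fold and 3.03-fold, or 1.28-fold and 1.59-fold without NEXN-WT replicate 1, and *Fmod* was detected on 2 NEXN-S437E arrays, with a difference of -3.30 (SE 0.79), or -2.26 without that NEXN-WT array.

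Of 8 proteases known to cleave members, 3 were lower by the same criteria and 0 higher. These were *Adamts4* (-1.44, SE 0.28) and *Adamts12* (-1.67, SE 0.35), secreted metalloproteases of which ADAMTS12 is known to cleave COMP, and *Mmp2* (-1.76, SE 0.40), a gelatinase. *Mmp14*, a membrane-bound collagenase, was detected on 3 NEXN-WT and 0 NEXN-S437E arrays, a level lower by at least 2.25-fold, or 1.82-fold without NEXN-WT replicate 1. *Mmp7*, *Mmp9*, *Mmp13* and *F2* were detected on 0 arrays.

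Of 19 receptors of matricellular proteins, 0 met the 2-fold criteria in either direction by limma or by the methods' t-test, and the median was -0.26. At an unadjusted limma p under 0.05 alone, 6 were lower and 1 was higher, where 6.7% of all tested probes were lower and 10.5% higher. *Itgb8* was detected on 3 NEXN-WT and 0 NEXN-S437E arrays, a level lower by at least 1.52-fold, or 1.18-fold without NEXN-WT replicate 1. Its groups overlapped. The smallest p belonged to *Itga4* (-0.74, SE 0.17), *Itgb3* (-0.82, SE 0.21), *Egfr* (-0.99, SE 0.29) and *Itgb5* (-0.72, SE 0.22), the integrin chains being partners of osteopontin, thrombospondins or periostin, with limma adjusted p from 0.134 to 0.196.

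Among relatives of the members in the same gene families, 1 of 10 was lower by the criteria and 0 higher, with a median of -0.19. This was *Fstl1*, a follistatin-like relative of SPARC, with a difference of -1.27 (SE 0.30), and without NEXN-WT replicate 1 it missed them. *Cilp2*, the paralogue of *Cilp*, was detected on all 3 NEXN-WT arrays and on 0 NEXN-S437E arrays, a level lower by at least 4.55-fold, or 2.27-fold without NEXN-WT replicate 1. *Tgfbi* (-0.65, SE 0.20), the paralogue of periostin, and *Tnxb* (-0.43, SE 0.16), a tenascin, missed the 2-fold criterion. *Tnn*, *Tnr*, *Spock3*, *Ibsp*, *Dmp1*, *Mepe* and *Dspp* were detected on 0 arrays.

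TGF-β signalling induces several members, and ATF6 is tied to THBS4 in the endoplasmic reticulum. Of 19 tested TGF-β ligands, receptors and target genes, 2 were lower by the criteria, *Tgfb3* (-1.34, SE 0.31), a ligand, and *Ltbp3* (-1.02, SE 0.27), a latent TGF-β-binding protein, with 0 higher and a median of -0.17. *Tgfb2* (-0.87, SE 0.24) and *Tgfbr1* (-0.96, SE 0.32) missed them, and without NEXN-WT replicate 1 the count was 0. *Tgfb3* then differed by -0.95 and *Ltbp3* by -0.72. Without that array 1 gene of the list was lower at a limma adjusted p under 0.05, against 0.457% of tested probes. Of 16 tested ATF6 and secretory pathway genes, 0 met the criteria by limma or the methods' t-test, 2 were higher and 0 lower at an unadjusted limma p under 0.05 alone, against 10.5% and 6.7% of all tested probes, and the median was 0.02. *Herpud1* (0.54, SE 0.17), *Dnajb9* (0.40, SE 0.14), *Pdia4* (-0.32, SE 0.15) and *Ddit3* (-0.25, SE 0.14) had the smallest p, with limma adjusted p from 0.200 to 0.381.

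**Figure D3:**
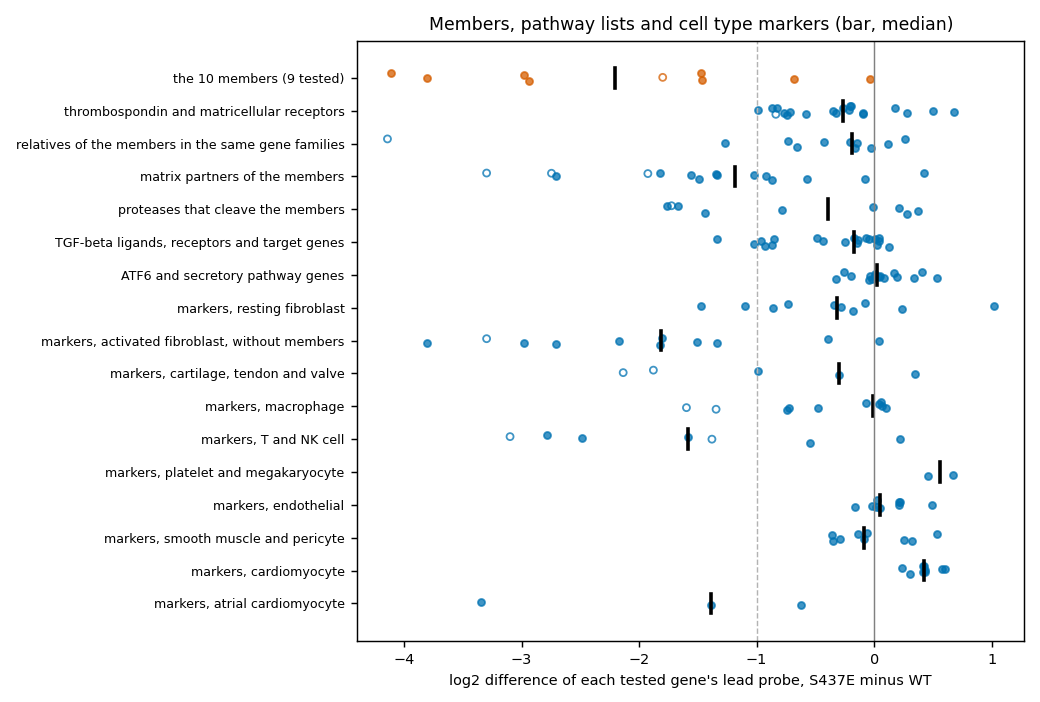
Log2 difference between NEXN-S437E and NEXN-WT (horizontal axis) for each tested gene's lead probe in the matricellular genes (orange), 6 lists of genes that work with them and 10 lists of cell type markers (blue), with the median of the genes detected on all 6 arrays as a black bar, the other genes as open points and the 2-fold line dashed. Activated fibroblast markers lie mostly left of the dashed line, and cardiomyocyte markers all lie right of 0.

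Markers of several cell types moved with the members. Of 10 activated fibroblast markers other than the members, 8 were lower by the criteria and 0 higher, with a median of -1.81, and their summed linear level was 269 to 601 in NEXN-WT (601 in replicate 1) and 131 to 177 in NEXN-S437E. *Ltbp2* (-3.80, SE 0.62, or -2.97 without NEXN-WT replicate 1) and *Sfrp2* (-2.98, SE 0.57, or -2.21) led them by p together with *Col3a1* and *Col1a1*, which also stand among the matrix partners, and *Tnn* was detected on 0 arrays. *Fap* (-0.39, SE 0.25) and *Acta2* (0.04, SE 0.31) were not called. The median of the 10 resting fibroblast markers was -0.31, with 2 lower and 1 higher by the criteria, or 1 and 0 without NEXN-WT replicate 1, and their sum ran from 859 to 982 in NEXN-WT and from 851 to 888 in NEXN-S437E. The part of fibroblast number or state in the members' values was not tested.

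T and NK cell markers were lower by the criteria for 3 of 5 genes, *Cd3d* (-2.49, SE 0.28), *Nkg7* (-2.79, SE 0.38) and *Gzma* (-1.58, SE 0.38), and the sum of the 5 was 3.17 to 6.51 in NEXN-WT and 1.73 to 1.89 in NEXN-S437E. Their lowest NEXN-WT sum was that of replicate 1, where the members were highest. *Cd3e* (-0.55, SE 0.23) and *Cd4* (0.22, SE 0.15) were not called, and *Cd8a* did not pass the filter. *Cd3g* was detected on 3 NEXN-WT and 0 NEXN-S437E arrays and was at least 2.18-fold lower, and *Gzmb* was detected on 3 and 1, so no difference is given for it, with *Klrb1c* and *Ncr1* detected on 0 arrays. Of 8 macrophage markers 0 met the criteria by limma or the methods' t-test. At an unadjusted limma p under 0.05 alone 2 were lower and 0 higher, against 6.7% and 10.5% of all tested probes. *Gpnmb* (-1.60, SE 0.32) was detected on 3 NEXN-WT and 2 NEXN-S437E arrays, and *Itgax* on 3 and 0, a level lower by at least 2.03-fold, or 1.65-fold without NEXN-WT replicate 1. The sums of the 8 overlapped, at 172 to 232 against 200.2 to 216.

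Atrial cardiomyocyte markers were lower by the criteria for 2 of 3 tested genes, *Nppa* (-1.39, SE 0.17, limma adjusted p = 0.0254) and *Dkk3* (-3.34, SE 0.50, or -2.71 without NEXN-WT replicate 1), and their sum was 385 to 446 in NEXN-WT and 140 to 191 in NEXN-S437E. *Myl4* (-0.62, SE 0.22) missed the 2-fold criterion, and *Sln* and *Myl7* did not pass the filter. *Nppa* also rises in stressed ventricles, and *Bmp10* was detected on 0 arrays. Of 3 cartilage, tendon and valve markers 0 met the criteria by limma or the methods' t-test. At an unadjusted limma p under 0.05 alone 1 was lower, against 6.7% of all tested probes. *Col2a1* and *Prg4* were detected on 3 NEXN-WT and 0 NEXN-S437E arrays and were lower by at least 1.48-fold and 1.59-fold. Without NEXN-WT replicate 1 the bound was 1.05-fold for *Prg4* and under 1 for *Col2a1*. *Acan*, *Col9a1*, *Matn1*, *Chad* and *Hapln1* were detected on 0 arrays, although *Comp* and *Cilp* are best known from cartilage.

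All 9 cardiomyocyte markers were measured in both groups, as heart tissue would give, and were 0.43 higher by the median with NEXN-S437E, with summed levels of 1629 to 2097 against 2500 to 2602. Endothelial markers summed to 358 to 457 and 492 to 507, smooth muscle and pericyte markers to 130 to 153 and 137 to 164, and the 2 tested platelet markers to 20.1 to 29.9 and 32.0 to 33.8. Those 2 were *Pf4* and *Ppbp*, while *Itga2b*, *Gp1ba*, *Gp6*, *Treml1* and *Tubb1* were detected on 0 arrays and *Gp9* did not pass the filter. In these 4 lists 0 genes met the criteria by limma or by the methods' t-test. At an unadjusted limma p under 0.05 alone, 5 of 9 cardiomyocyte, 1 of 9 endothelial and 2 of 2 platelet markers were higher, and of 9 smooth muscle and pericyte markers 1 was higher and 1 lower, against 10.5% of all tested probes higher and 6.7% lower. NEXN-WT replicate 1 had the lowest sum of cardiomyocyte, endothelial, smooth muscle and platelet markers. The part of tissue composition in the members' values was not tested.

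Both groups had the deletion and a *Nexn* vector. The *Clk4* probe detected on all 6 arrays differed by 0.13 (SE 0.18, limma adjusted p = 0.706), and the 2 *Nexn* probes by 0.02 and 0.14, all smaller than their standard errors. Whether these probes lie in the deleted exons or detect the vector's *Nexn* was not established here.

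The arrays lay in 2 rows of 1 slide, with all NEXN-WT arrays and NEXN-S437E replicate 1 in the same row. Within that row NEXN-S437E replicate 1 lay below all 3 NEXN-WT arrays for 8 of the 9 lead probes, the exception being *Spp1*, and the differences were -3.67 for *Cilp*, -3.67 for *Comp*, -3.34 for *Thbs4* and -3.00 for *Postn*. A fit with slide row as a block gave these same differences, since the other row held NEXN-S437E arrays alone, so it sets 1 NEXN-S437E array, assumed to vary like the rest, against 3 NEXN-WT arrays. In it 5 of the 9 genes met the 2-fold criteria, *Thbs1* being lost, against 2.47% of all tested probes, and 0 had an adjusted p under 0.05, against 0.104% of probes in either direction.

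The genes whose pattern over the 6 arrays was most like that of a member were sought among 12915 other genes detected on all arrays. Each gene's 6 values were centred on their mean, and the root mean square (RMS) difference from the member was taken. The 2 nearest to *Comp* were *Ltbp2* (RMS 0.25) and *Dkk3* (0.48), and the 2 nearest to *Cilp* were *Dkk3* (0.34) and *Ltbp2* (0.35). For *Postn* the 3 nearest were *Dio2* (RMS 0.12), *Sfrp2* (0.18) and *Lox* (0.28), and for *Thbs4* *Dio2* (0.18), *Frzb* (0.24) and *Lox* (0.37).

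*Thbs3*, whose values span less than those of *Comp* or *Postn*, was matched by *Col6a3* (RMS 0.07), *Acp5* (0.09) and *Tgfb3* (0.09). The nearest to *Thbs1* were *Crispld1* (RMS 0.18), *Svep1* (0.21) and *Kif1a* (0.21), and to *Spp1* *Zfp185* (0.51), *Crispld1* (0.70) and *Kif1a* (0.70). *Ltbp2* encodes a microfibril protein, *Lox* a collagen crosslinking enzyme, *Sfrp2* and *Frzb* secreted Wnt antagonists and *Dio2* a thyroid hormone deiodinase. The match rests on 6 arrays, in which the step between groups and the height of NEXN-WT replicate 1 carry most of the range.

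**Figure D4:**
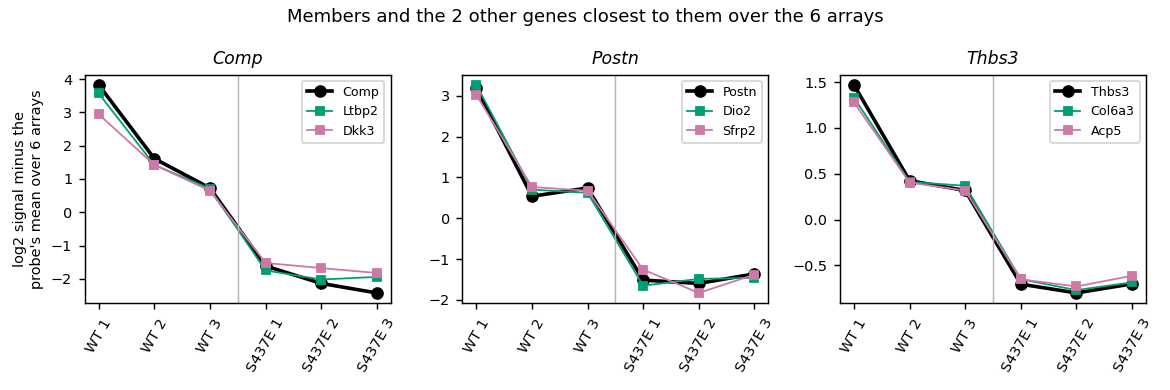
Log2 signal minus each probe's mean over the 6 arrays (vertical axis) for *Comp*, *Postn* and *Thbs3* (black) and the 2 other genes nearest to each (colours), by array (horizontal axis), with a line between NEXN-WT and NEXN-S437E. The curves peak at NEXN-WT replicate 1 and drop at the line, and the RMS differences around *Thbs3*, on its narrower axis, were 0.07 and 0.09.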

How the data were processed

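Gene expression was measured in 6 hearts, 3 NEXN-WT and 3 NEXN-S437E, with 1 array each on 1 slide read in 1 scan. Groups and replicate numbers were taken from the sample labels. The authors extracted the arrays with Agilent Feature Extraction 10.7.1.1, and the deposited intensity values are background-subtracted processed signals, not normalized between arrays. The deposited series table adds normalized log2 values, and its 6 columns have the same values once sorted, as after quantile normalization, though the method is not given in the sources used here. Probe names and mm9 coordinates are those of the deposited annotation. No mm9 annotation was used, so probes were not placed in exons or introns.

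Each array's 75th percentile of the processed signal over all non-control spots was subtracted on the log2 scale. Spots were averaged per probe, leaving out controls and outlier flags. Probes that all 3 arrays of a group detected were fitted by limma (version 3.58.1, functions lmFit and eBayes) under R 4.3.3, with files read by the data.table package (version 1.17.8), and p-values were adjusted by Benjamini-Hochberg over 22998 probes. Of the spots, 41.9% to 47.8% were well above background on an array and 0 were saturated, and the number of arrays limits the precision. Calls used the study's limits of a 2-fold change and an unadjusted p under 0.05, with limma's p in place of the methods' t-test that the study used, and separately 0.05 after adjustment. The test was checked on simulated data with 22987 probes, where it found 93 of 100 probes changed 2-fold at an unadjusted p under 0.05 in the right direction and 41 at the adjusted threshold, and 98 and 83 of 100 changed 4-fold. Sequences were handled and figures drawn with Python 3.11.15, numpy 2.4.6 and matplotlib 3.10.9.

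All 10 members and their probes are named. Of each list at most the 4 genes of smallest p are named, with those detected on 0 arrays. The genes of a list that passed the filter through NEXN-WT alone were named outside this rule, after their values were seen. So were *Fap*, *Acta2*, *Cd3e* and *Cd4*, which were not called, and *Cd8a*, *Sln*, *Myl7* and *Gp9*, which were not tested. For each member whose lead probe spans over 2 on the log2 scale, the 3 nearest genes are named, except 1 gene near *Cilp* and *Comp* that is not reported here. The members and lists were chosen with earlier results of these data known. The alternatives were other normalizations (quantile, the percentile over detected probes, normexp with an offset of 50, the authors' values), other filters, outlier spots kept, the methods' t-test, a replicate block, an intensity trend, array weights, a slide row block, the mean over a gene's probes, and each array left out. The planned comparison of protein sequences, and the check of whether probes are coding, were not run, so only 30 bases of a probe are printed.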

Additional observations from a re-analysis of the deposited data

How the results depend on the processing

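Under the 19 alternatives, the log2 differences of *Cilp*, *Comp*, *Postn*, *Thbs3* and *Thbs4* kept their direction and stayed past the 2-fold criteria, and no member reversed. The ranges were -4.10 to -3.22 for *Cilp*, -4.77 to -3.23 for *Comp*, -3.45 to -2.12 for *Postn*, -3.41 to -1.99 for *Thbs4* and -1.68 to -1.11 for *Thbs3*. *Thbs2* (-0.87 to -0.38) and *Sparc* (-0.44 to -0.00) met the criteria under none. *Thbs1* (-1.86 to -0.74) missed them under 5, namely the methods' t-test, array weights, slide row as a block, and without NEXN-WT replicate 1 or NEXN-S437E replicate 2. *Spp1* (-2.62 to -0.34 under 18 alternatives) met them under 2, the replicate block and without NEXN-WT replicate 2. Without a filter *Tnc* also entered the test and 7 members met the criteria, against 1.1% of 56605 probes. The *Tnc* probe was detected on 1 array only, so its call there is not a measured difference.

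The number of member genes past the adjusted threshold, 1 as reported, was 0 with quantile normalization, the authors' normalized values, no filter on dim probes, the methods' t-test and slide row as a block. It was 2 with the intensity trend, 5 with array weights, which called 3820 of all 22998 tested probes against 37 as reported, and 0 to 5 with 1 array left out (5 without NEXN-WT replicate 1, 2 without replicate 3, and 0 without any other array). The cause was not tested. The methods' t-test called 0 of all tested probes after adjustment and 3141 at an unadjusted p under 0.05. Without NEXN-WT replicate 1 the median difference of the 9 tested members was -1.11, against -1.80 with all arrays, which is the value of *Spp1*.

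The labels give replicate numbers and state no pairing of the arrays. Over the tested probes, the deviations of arrays with the same number from their group means correlated at -0.15, -0.03 and -0.18. These correlations show no sign of a pairing and cannot exclude it. With the replicate block, 2 member genes passed the adjusted threshold and 7 the 2-fold criteria, against 0.161% of all tested probes in either direction and 1.81% lower.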
